A study of Mus musculus with 4 samples.

Results

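The genes described here encode basement membrane proteins of the mouse kidney. They are the collagen IV chains Col4a1, Col4a2, Col4a3, Col4a4 and Col4a5, the collagen XVIII chain Col18a1, the laminin chains Lama5, Lamb2 and Lamc1, and the linker protein Nid1. Every probe set that the platform annotation assigns to any of these genes was taken, whatever its values, which gave 16 probe sets of 10 genes. The series holds 22690 probe sets, of which 20393 carry a single gene symbol and represent 12394 genes. Of the member genes, 6 have 2 probe sets and 4 have 1. RNA of whole kidney from C57BL/6 mice (age 17 weeks, sex given as male) was measured on 1 Affymetrix array for each of 4 groups. The labels describe 6 mice per group and do not state how many mice an array represents.

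The GN+Captopril group received apoferritin from horse spleen, 10 mg on 5 days a week, together with lipopolysaccharide, 100 µg given 3 times a week, for 6 weeks, which is the study's model of glomerulonephritis (GN). It also drank captopril, an inhibitor of angiotensin-converting enzyme, at 100 mg per kg per day. The GN+Water group received the same injections and plain water. The Saline+Captopril group was injected with 0.15 M NaCl and drank captopril, and the Saline+Water group was injected with 0.15 M NaCl and drank water. Injections began at about 8 weeks of age, and kidneys were taken after 9 weeks of treatment. No mutant allele or transgene is labelled in any group.

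A basement membrane is a thin sheet of matrix under epithelium and endothelium. Its core is a laminin network and a collagen IV network, which nidogen and the proteoglycan perlecan tie together. Most basement membranes carry the collagen IV trimer of alpha 1 and alpha 2 chains. In the mature glomerular basement membrane, the filter between podocytes and capillary endothelium, the trimer of alpha 3, alpha 4 and alpha 5 chains takes its place, and the main laminin is built of the alpha 5, beta 2 and gamma 1 chains. Mutations of COL4A3, COL4A4 or COL4A5 cause Alport syndrome in humans, and loss of laminin beta 2 causes congenital nephrotic syndrome.

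Both chains of the widespread collagen IV trimer start from neighbouring sites on opposite strands, and in RefSeq (GRCm38.p6) the annotated starts of Col4a2 on the plus strand and Col4a1 on the minus strand enclose 22 bases at chr8:11312805-11312826. This stretch is shown, on the plus strand, because the annotated starts of both genes of that trimer lie at its ends. Each gene is read from its start into the stretch, so the stretch is not upstream of either annotated start. The capitals mark a GC box.
Col4a1 and Col4a2, between the starts: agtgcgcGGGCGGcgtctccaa

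Promoter windows of 200 bases, from 250 to 51 bases before the annotated start, were read from RefSeq (GRCm38.p6) for the members with the highest positive GN difference on water (Nid1) and on captopril (Lamb2), and for the glomerular chain gene Col4a5. The promoter table holds 8 of the 10 member genes, and Col4a3 and Lamc1 are not among them. The Nid1 window is chr13:13437352-13437551, the Lamb2 window chr9:108479612-108479811 and the Col4a5 window chrX:141475169-141475368, each on the plus strand. The motifs searched on both strands were the GC box GGGCGG, the CCAAT box CCAAT and the TATA box TATAAA, and matches are in capitals.
Nid1: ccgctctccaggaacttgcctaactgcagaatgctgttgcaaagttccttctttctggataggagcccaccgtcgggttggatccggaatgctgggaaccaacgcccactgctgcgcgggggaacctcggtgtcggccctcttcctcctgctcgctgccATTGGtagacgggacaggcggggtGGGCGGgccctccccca
Lamb2: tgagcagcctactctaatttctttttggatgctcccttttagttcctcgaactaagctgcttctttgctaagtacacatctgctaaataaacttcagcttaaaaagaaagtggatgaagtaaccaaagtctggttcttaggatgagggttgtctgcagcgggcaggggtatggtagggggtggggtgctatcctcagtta
Col4a5: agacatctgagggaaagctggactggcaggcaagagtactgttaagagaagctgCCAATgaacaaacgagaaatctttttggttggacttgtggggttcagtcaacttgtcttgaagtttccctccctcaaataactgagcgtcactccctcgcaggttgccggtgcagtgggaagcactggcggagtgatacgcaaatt
The Nid1 window holds 1 GC box and 1 CCAAT box, the CCAAT box on the minus strand, at 63.5% GC, and it overlaps the annotated pseudogene Gm7426. The Lamb2 window holds none of the 3 motifs at 44.5% GC, and the Col4a5 window holds 1 CCAAT box at 49.5% GC. Among 32851 windows of the same length in the table, 24.6% hold the GC box, 28.4% the CCAAT box and 9.14% the TATA box, and the median GC content is 51.5%. These matches describe the letters of the windows and are not binding sites.

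With 1 array per group, a fit of the 4 groups has 0 residual degrees of freedom. A fit that assumes GN and captopril to add up would leave 1 and was not run, so no p-value is given, and every difference below is a log2 difference between 2 arrays within a probe set. A difference of at least 1.5-fold (0.585 on the log2 scale) was counted. Levels are the deposited log2 values, and levels of different probe sets are not comparable. In whole kidney, fewer cells of a type and less RNA per cell cannot be told apart. On the array labelled GN+Water, the X-linked transcript Xist was at 8.97 and the Y-linked Eif2s3y at 3.43, whereas Xist was at 5.02 to 5.21 and Eif2s3y at 8.02 to 8.29 on the other 3 arrays, all labelled male. On the Saline+Water array the 18 spike-in probe sets had a median of 10.8, against 7.46 to 7.89 on the other 3. The comparison of GN+Captopril with Saline+Captopril uses neither of these arrays. All 10 kidney tubule markers and all 9 podocyte markers measured lay above the background limit of each array, from Slc34a1 at 13.2 to 13.4 to Pvalb at 5.57 to 9.31 among the tubule markers.

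All 16 member probe sets lay above the background limit on all 4 arrays, with the limit taken as the 90th percentile of the 27 negative controls of the same array. By mean level, 14 of 16 lay at or over the 40th percentile of the whole array. The Lamb2 probe set and the dimmer Lamc1 probe set did not.

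**Figure D1:**
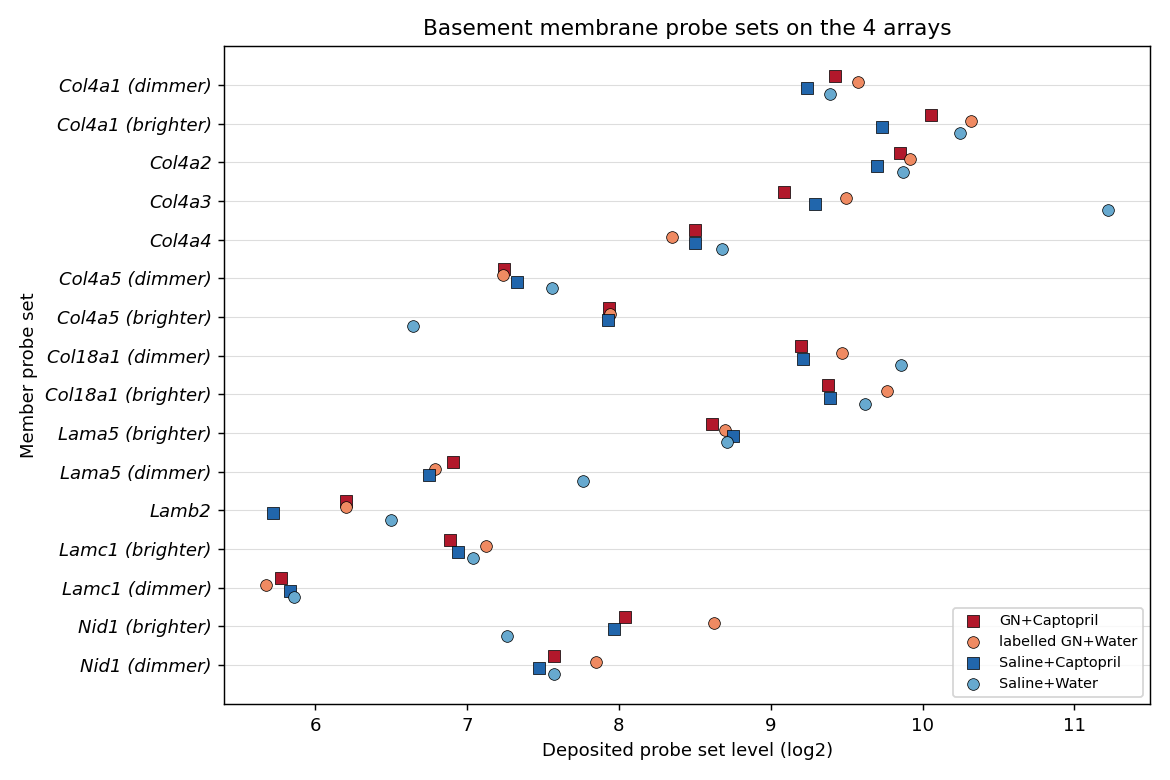
Deposited log2 level (x axis) of each member probe set (y axis) on the 4 arrays, 1 point per array, with brighter and dimmer naming the 2 probe sets of a gene by mean level. Saline+Water is the point that stands apart for Col4a3 (11.22), the brighter Col4a5 (6.65), the dimmer Lama5 (7.77) and the brighter Nid1 (7.26), while Col4a2 spans only 0.22.

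Of the chains of the widespread collagen IV network, the brighter Col4a1 probe set spanned 0.59 over the 4 arrays, the dimmer 0.33 and Col4a2 0.22. Col4a1 encodes the alpha 1 chain, and its brighter probe set (1452035_at) was at 10.05 on GN+Captopril, 10.32 on the array labelled GN+Water, 9.73 on Saline+Captopril and 10.25 on Saline+Water. Saline+Captopril was lowest, and the other 3 arrays lay within 0.27 of each other. Its second probe set (1426348_at) was at 9.42 on GN+Captopril, 9.58 on the array labelled GN+Water, 9.24 on Saline+Captopril and 9.39 on Saline+Water, again with Saline+Captopril lowest and the array labelled GN+Water highest. Col4a2, which encodes the alpha 2 chain (1424051_at), was at 9.85 on GN+Captopril, 9.92 on the array labelled GN+Water, 9.70 on Saline+Captopril and 9.87 on Saline+Water. Both GN arrays were thus above Saline+Captopril for each of the 3 probe sets of these genes. The GN difference on captopril was 0.32 and 0.18 for Col4a1 and 0.15 for Col4a2, and the GN difference on water was 0.07 and 0.18 for Col4a1 and 0.05 for Col4a2. None of these values reached 1.5-fold.

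The glomerular chains did not move together. Col4a3 (1450224_at), encoding the alpha 3 chain, was at 9.09 on GN+Captopril, 9.50 on the array labelled GN+Water, 9.30 on Saline+Captopril and 11.22 on Saline+Water. A single array was high, and the other 3 lay within 0.41 of each other. The GN difference was therefore -1.73 on water, 3.31-fold lower, and -0.21 on captopril. Against Saline+Captopril the array labelled GN+Water was 0.20 higher for Col4a3, so the direction on water depends on which saline array is used. Col4a4 (1425772_at), encoding the alpha 4 chain, was at 8.50 on GN+Captopril, 8.35 on the array labelled GN+Water, 8.50 on Saline+Captopril and 8.68 on Saline+Water. Its GN difference was -0.33 on water and 0.00 on captopril.

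Col4a5 lies on the X chromosome and encodes the alpha 5 chain, and its 2 probe sets differed in direction. The brighter (1425476_at) was at 7.93 on GN+Captopril, 7.94 on the array labelled GN+Water, 7.93 on Saline+Captopril and 6.65 on Saline+Water. The values other than that of Saline+Water span 0.01, and only Saline+Water was low. The dimmer (1425475_at) was at 7.24 on GN+Captopril, 7.24 on the array labelled GN+Water, 7.33 on Saline+Captopril and 7.56 on Saline+Water, where Saline+Water was the highest. The GN difference on water was 1.30 for the brighter and -0.32 for the dimmer, and on captopril it was 0.01 and -0.08.

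The contrast between the 2 collagen IV networks is the median difference of the 3 Col4a1 and Col4a2 probe sets minus that of the 4 Col4a3, Col4a4 and Col4a5 probe sets. For GN on captopril it was 0.23, from medians of 0.18 and -0.04, with ranges of 0.15 to 0.32 and -0.21 to 0.01. How often other probe sets differ by as much was not tested, and probe sets are not replicates of a group. For GN on water it was 0.40, from medians of 0.07 and -0.32, but there the glomerular chains ran from -1.73 to 1.30 and enclosed the other set. With Saline+Captopril as baseline, the contrast for the array labelled GN+Water was 0.37, from medians of 0.33 and -0.04. That comparison shares the Saline+Captopril array with GN on captopril, so the 2 are not independent. The captopril contrast was -0.15 in GN mice and 0.04 in saline mice. Each of the 5 contrasts is smaller than 1.5-fold.

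Col18a1 encodes the collagen XVIII chain, whose cleaved end is endostatin. Its brighter probe set (1426955_at) was at 9.38 on GN+Captopril, 9.77 on the array labelled GN+Water, 9.39 on Saline+Captopril and 9.62 on Saline+Water, with the 2 captopril arrays lowest and 0.02 apart. Its other probe set (1418237_s_at), which has an ID of the kind shared between transcripts, was at 9.20 on GN+Captopril, 9.47 on the array labelled GN+Water, 9.21 on Saline+Captopril and 9.86 on Saline+Water. The 2 captopril arrays were again lowest, and 0.01 apart. The captopril difference in GN mice was -0.39 and -0.27, and in saline mice it was -0.23 and -0.65.

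Among the laminin chains of the glomerular filter, Lama5 (alpha 5) was flat on its brighter probe set (1427009_at), at 8.61 on GN+Captopril, 8.70 on the array labelled GN+Water, 8.75 on Saline+Captopril and 8.72 on Saline+Water. Its dimmer probe set (1427010_s_at), also of the shared kind, was at 6.91 on GN+Captopril, 6.79 on the array labelled GN+Water, 6.75 on Saline+Captopril and 7.77 on Saline+Water, so that Saline+Water stood 0.85 above the next array. The GN difference on water was -0.01 for the brighter and -0.97 for the dimmer, and on captopril -0.14 and 0.16. Lamb2 (beta 2; 1416513_at) was at 6.20 on GN+Captopril, 6.20 on the array labelled GN+Water, 5.72 on Saline+Captopril and 6.50 on Saline+Water. The GN arrays held exactly the same value, and the 2 saline arrays lay on either side of them. Its GN difference was 0.48 on captopril, the largest of the members there, and -0.30 on water. Exactly equal deposited values on at least 2 arrays occurred in 3 of 16 member probe sets and in 16.8% of all. The 3 are those of Lamb2 and Col4a4 and the dimmer Nid1 probe set.

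Lamc1 encodes the gamma 1 chain that most laminins share. Its brighter probe set (1423885_at) was at 6.89 on GN+Captopril, 7.12 on the array labelled GN+Water, 6.94 on Saline+Captopril and 7.04 on Saline+Water. Its dimmer (1423886_at) was at 5.78 on GN+Captopril, 5.68 on the array labelled GN+Water, 5.84 on Saline+Captopril and 5.86 on Saline+Water. No difference for either reached 0.25, and the 2 probe sets took opposite directions for GN on water (0.08 and -0.18).

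Nid1 encodes nidogen 1, which binds the laminin gamma 1 chain and collagen IV. Its brighter probe set (1416808_at) was at 8.04 on GN+Captopril, 8.63 on the array labelled GN+Water, 7.97 on Saline+Captopril and 7.26 on Saline+Water. The array labelled GN+Water was highest by 0.59 and Saline+Water lowest by 0.71. The GN difference was 1.36 on water, 2.57-fold higher, and 0.07 on captopril, and the captopril difference was -0.59 in GN mice and 0.71 in saline mice. The dimmer probe set (1448469_at) was at 7.58 on GN+Captopril, 7.85 on the array labelled GN+Water, 7.48 on Saline+Captopril and 7.58 on Saline+Water. It too was highest on the array labelled GN+Water, but Saline+Water was not the lowest, and its GN difference on water was 0.27. Its captopril difference was -0.27 in GN mice and -0.10 in saline mice, the same direction in both, unlike the brighter probe set.

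**Figure D2:**
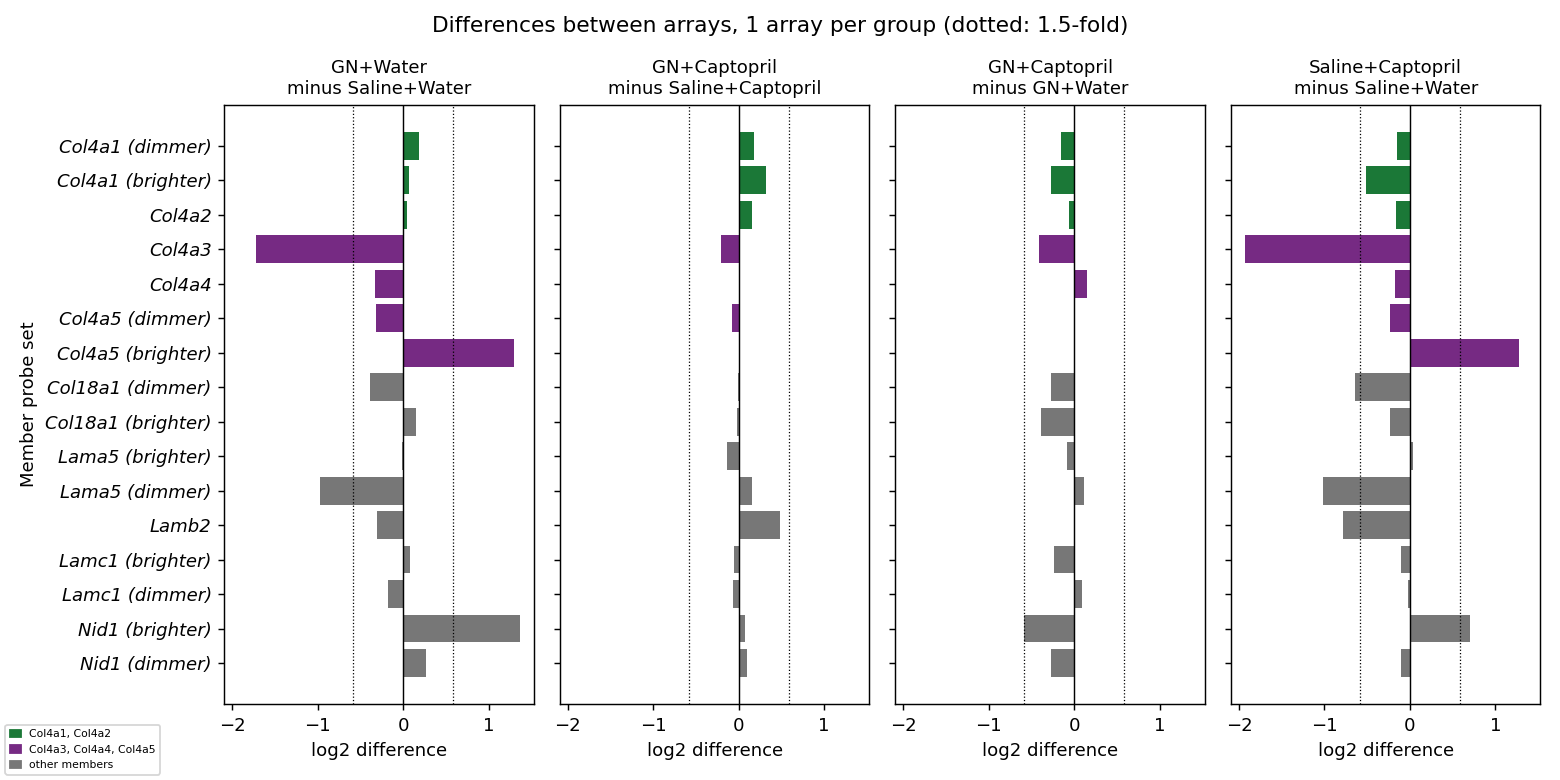
Log2 differences (x axes) of the 16 member probe sets (y axis) in the 4 comparisons, 1 bar per probe set, with dotted lines at 1.5-fold. In the comparison of GN+Captopril with Saline+Captopril no bar reaches a dotted line, while the bars that pass one for GN+Water against Saline+Water belong to Col4a3 (-1.73), Col4a5 (1.30), Lama5 (-0.97) and Nid1 (1.36).

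Counted over the members, GN on captopril put no member probe set past 1.5-fold in either direction. Over all probe sets 1.41% were at least 1.5-fold higher and 0.255% lower in that comparison, so a count of 0 of 16 is close to what the whole array shows. For GN on water, 2 of 16 were higher and 2 lower, beside 15.6% and 18.6% of all. With Saline+Captopril as the baseline of the array labelled GN+Water, the brighter probe sets of Nid1 (0.66) and Col4a1 (0.59) were at least 1.5-fold higher and none of the 16 was lower, beside 4.71% and 2.24% of all. The captopril comparison in GN mice had 0 members higher and 1 lower, the brighter Nid1 probe set, beside 2.50% and 3.27% of all. In saline mice, captopril had 2 higher and 4 lower, beside 12.7% and 14.0% of all. The lower ones were Col4a3, the dimmer Lama5, Lamb2 and the shared Col18a1 probe set, and the higher ones were the brighter probe sets of Col4a5 and Nid1. The 4 lower members in saline mice make up 25% of the 16, above the 14.0% of the whole array, and were 2 when shared probe sets were left out. In the other counts against Saline+Water, 2 of 16 is a share near or under that of the whole array.

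The median member difference was 0.02 for GN on water and 0.003 for GN on captopril, beside -0.09 and -0.003 over all probe sets. It was -0.12 for captopril in GN mice and -0.17 for captopril in saline mice, beside 0.00 and -0.06 over all probe sets. For captopril in GN mice, 11 of the 16 member differences were negative and 4 positive, and in saline mice 13 were negative and 3 positive. The first comparison uses the array labelled GN+Water and the second the Saline+Water array. The share of negative differences over all probe sets was not counted, so these counts cannot be set against the whole array. Of the 10 genes, 6 enter them with 2 probe sets each.

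The Saline+Water array set much of the spread. It lay outside the other 3 arrays by at least 1.5-fold for 4 of 16 member probe sets (25%), those of Col4a3, the brighter Col4a5, the dimmer Lama5 and the brighter Nid1, and for 21.3% of all probe sets. The median range of a member was 0.38 over 4 arrays and 0.25 without Saline+Water, against 0.51 and 0.20 for all probe sets. Without Saline+Water, 2 of 16 members (12.5%) spanned more than 1.5-fold, Col4a1 (0.59) and Nid1 (0.66), beside 8.58% of all probe sets. The part of the high spike-in signal in these values was not tested.

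The 6 genes with 2 probe sets allow a check within a gene. For GN on water their 2 differences lay 0.75 apart at the median (0.11 to 1.62), with opposite signs in 3 of 6, those of Col4a5, Col18a1 and Lamc1. Opposite signs also occurred in the other comparisons, in 2 of 6 for GN on captopril and in 3 of 6 for captopril in GN mice and in saline mice. For GN on captopril they lay 0.06 apart (0.01 to 0.30), and for captopril in GN mice 0.16 apart (0.01 to 0.33). For captopril in saline mice they lay 0.61 apart (0.08 to 1.51). The 2 comparisons with wide gaps are those that use Saline+Water, and in each of them 3 of the 6 genes had probe sets more than 1.5-fold apart.

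The genes that work with the members were counted by their brightest probe set, over lists chosen from textbook roles. Beside the counts on water, the share of all genes past 1.5-fold was 15.1% upward and 18.0% downward, and on captopril it was 1.65% upward and 0.274% downward. Of 7 other laminin chains, 2 were higher and 3 lower in GN on water, and none passed on captopril. Lama3, an alpha chain of epithelial laminins, was at 7.89 on GN+Captopril, 6.63 on the array labelled GN+Water, 7.41 on Saline+Captopril and 7.69 on Saline+Water. It was lowest on the array labelled GN+Water, as was Lama1, the alpha chain of the early embryonic laminin and of tubular basement membrane, at 7.41 on GN+Captopril, 6.67 on the array labelled GN+Water, 7.10 on Saline+Captopril and 7.33 on Saline+Water. Lama2, the alpha chain of muscle and mesangial laminin, was highest there, at 7.25 on GN+Captopril, 7.70 on the array labelled GN+Water, 7.14 on Saline+Captopril and 6.86 on Saline+Water. Lamb3, a beta chain of epithelial laminins, was near background at 4.57 on GN+Captopril, 4.62 on the array labelled GN+Water, 4.84 on Saline+Captopril and 5.31 on Saline+Water.

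Of 14 other basement membrane components, 3 were higher and 2 lower in GN on water, and none passed on captopril. Npnt, a ligand of integrin alpha 8 beta 1, was at 9.71 on GN+Captopril, 11.23 on the array labelled GN+Water, 10.23 on Saline+Captopril and 9.32 on Saline+Water, but its probe sets disagree in sign in some comparisons. Sparc, a collagen-binding matricellular protein, was at 10.95 on GN+Captopril, 11.74 on the array labelled GN+Water, 10.57 on Saline+Captopril and 10.43 on Saline+Water. On this brightest of its 2 probe sets both GN arrays were above both saline arrays. The GN difference on captopril was 0.38 for it and 0.49 as the mean of the 2. For captopril in saline mice the 2 differed in sign, with 0.14 for the brightest and a mean of -0.27. Ntn4, a netrin that interferes with laminin assembly, was at 8.25 on GN+Captopril, 8.02 on the array labelled GN+Water, 8.40 on Saline+Captopril and 9.09 on Saline+Water. Smoc1 was at 6.52 on GN+Captopril, 6.64 on the array labelled GN+Water, 6.55 on Saline+Captopril and 7.28 on Saline+Water, which was the highest array for both genes. The perlecan gene Hspg2 and the agrin gene Agrn had GN differences of -0.30 and 0.08 on water and -0.31 and 0.10 on captopril. For Hspg2 these are values of the brightest of 2 probe sets, and the mean of the 2 was -0.55 on water and -0.12 on captopril, where they differ in sign.

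Of 10 genes of collagen assembly and cross-linking, 3 were higher and 2 lower in GN on water, and none passed on captopril. Lox, which cross-links collagen, was at 5.87 on GN+Captopril, 6.97 on the array labelled GN+Water, 5.66 on Saline+Captopril and 5.33 on Saline+Water. Its mean level is under the 40th percentile of the array, and 2 of its 3 probe sets took the direction of the brightest in each GN comparison, with a mean of 0.80 over the 3 on water against 1.64 for the brightest. Its relative Loxl1 was at 8.51 on GN+Captopril, 8.92 on the array labelled GN+Water, 8.13 on Saline+Captopril and 8.21 on Saline+Water, with both GN arrays above both saline arrays. The prolyl hydroxylase subunit P4ha2 was at 8.05 on GN+Captopril, 7.50 on the array labelled GN+Water, 8.01 on Saline+Captopril and 8.92 on Saline+Water. The lysyl hydroxylase Plod3 was at 8.66 on GN+Captopril, 8.68 on the array labelled GN+Water, 8.70 on Saline+Captopril and 9.30 on Saline+Water, again the highest array. Serpinh1, the collagen chaperone, had GN differences of 0.07 on water and 0.03 on captopril.

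Of 11 receptors, 3 were higher and 2 lower in GN on water, and none passed on captopril. Itga3, the alpha subunit of the podocyte laminin receptor, was at 7.64 on GN+Captopril, 7.66 on the array labelled GN+Water, 7.73 on Saline+Captopril and 8.95 on Saline+Water. Itgb4 was at 5.69 on GN+Captopril, 5.80 on the array labelled GN+Water, 5.89 on Saline+Captopril and 6.78 on Saline+Water, again with Saline+Water alone high. The collagen receptor Ddr1 was at 10.65 on GN+Captopril, 10.56 on the array labelled GN+Water, 10.63 on Saline+Captopril and 9.48 on Saline+Water. The tetraspanin Cd151 was at 11.10 on GN+Captopril, 11.18 on the array labelled GN+Water, 11.01 on Saline+Captopril and 10.57 on Saline+Water. Saline+Water was lowest for Ddr1 and Cd151, but the probe sets of each disagree in sign in some comparisons.

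The proteases and inhibitors of the matrix gave the only pathway list with a gene past 1.5-fold for GN on captopril. Of 7 genes, 3 were higher and 0 lower on water, and 1 was higher and 0 lower on captopril. That gene was Timp1, an inhibitor of matrix metalloproteinases, at 6.42 on GN+Captopril, 7.07 on the array labelled GN+Water, 5.73 on Saline+Captopril and 6.16 on Saline+Water. Mmp14, a membrane-bound collagenase, was at 7.98 on GN+Captopril, 8.66 on the array labelled GN+Water, 7.40 on Saline+Captopril and 7.05 on Saline+Water, with both GN arrays above both saline arrays. Its GN difference on captopril was 0.58 on this brightest of its 2 probe sets, just under the threshold, and 0.44 as the mean of the 2. Timp2 was at 9.43 on GN+Captopril, 9.93 on the array labelled GN+Water, 9.02 on Saline+Captopril and 8.30 on Saline+Water, with probe sets that disagree in part.

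In GN mice, captopril gave 2.69% of all genes at least 1.5-fold higher and 3.70% lower, and in saline mice 11.6% and 13.4%. Of the 10 member genes, 0 were higher and 1 lower in GN mice, and 2 were higher and 2 lower in saline mice. In GN mice, the proteases and inhibitors and the other basement membrane components each had 0 higher and 3 lower. The other laminin chains had 2 higher and 0 lower, and collagen assembly and the receptors each had 0 higher and 1 lower. Of 8 macrophage markers, 0 were higher and 6 lower. For the array labelled GN+Water against Saline+Captopril, 5.53% of all genes were higher and 2.32% lower, and 2 member genes, Col4a1 and Nid1, were higher.

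**Figure D3:**
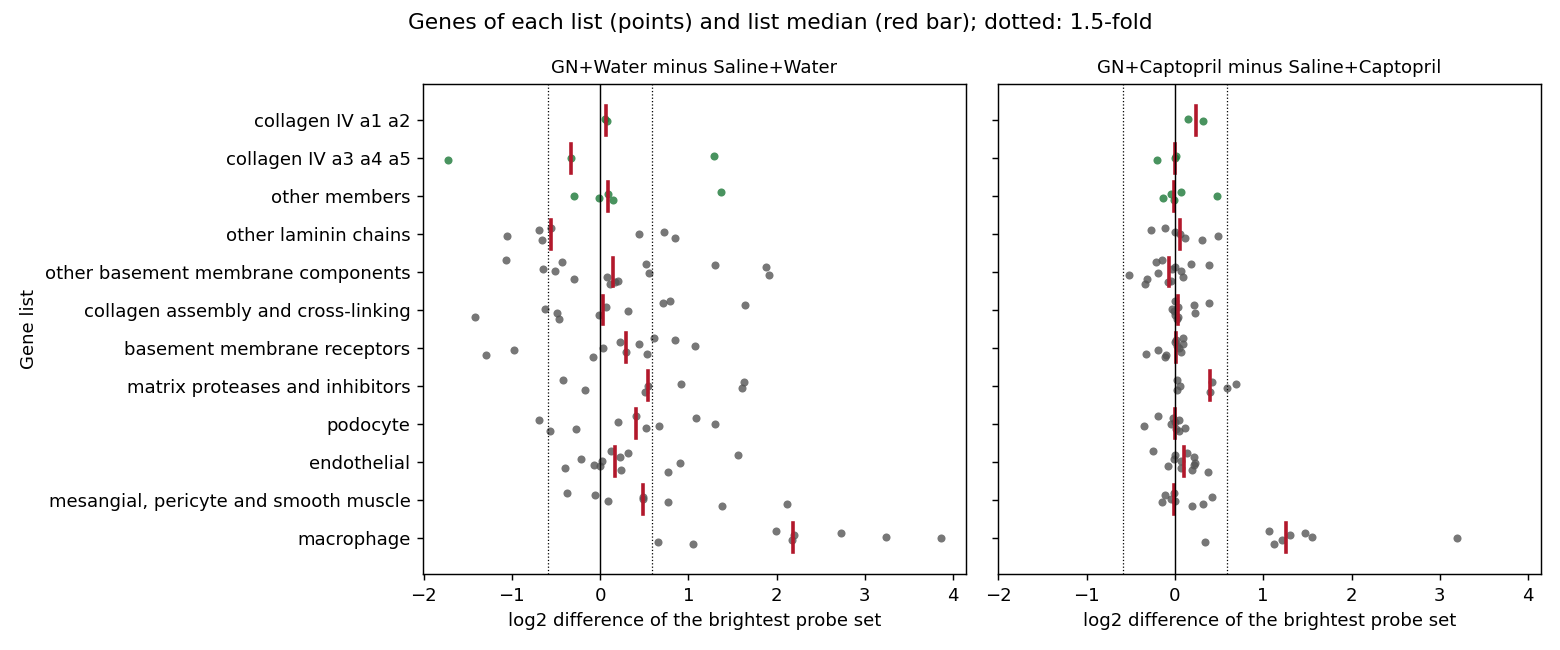
Log2 difference of the brightest probe set of each gene (x axes) by gene list (y axis), with each list's median as a red bar, for GN on water and GN on captopril. On captopril all 10 member genes (green points) lie inside the dotted 1.5-fold lines, while 7 of 8 macrophage markers lie beyond the upper line.

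Markers of cells that make or lie on basement membranes stood beside the members as follows. Of 9 podocyte markers, 3 were at least 1.5-fold higher and 1 lower in GN on water and none passed on captopril, with list means of 8.13 on GN+Captopril, 8.40 on the array labelled GN+Water, 8.17 on Saline+Captopril and 8.11 on Saline+Water. Of 12 endothelial markers, 3 were higher on water and none passed on captopril (means 8.37 on GN+Captopril, 8.53 on the array labelled GN+Water, 8.27 on Saline+Captopril and 8.24 on Saline+Water). Of 8 mesangial, pericyte and smooth muscle markers, 3 were higher on water and none passed on captopril (means 7.65 on GN+Captopril, 8.0 on the array labelled GN+Water, 7.57 on Saline+Captopril and 7.39 on Saline+Water). The means of these 3 lists were highest on the array labelled GN+Water, as the macrophage mean was. Among the members, both Nid1 and both Col4a1 probe sets, Col4a2 and the brighter probe sets of Col18a1, Lamc1 and Col4a5 were also highest there. So were the list means of the other basement membrane components, collagen assembly, receptors and proteases, but not those of the glomerular collagen IV chains and the other laminin chains. The podocyte markers did not share a direction on Saline+Water. By the brightest probe set of each gene, Nphs1, Podxl and Actn4 were highest there, and Synpo, Wt1, Ptpro, Cd2ap and Tcf21 were lowest there. For Podxl, Synpo and Ptpro, only 1 of 2 probe sets had the direction of the brightest in GN on water. Synpo was lowest by little, at 7.39 against 7.40 on Saline+Captopril. Of 10 tubule markers, 2 were higher and 2 lower on water and none passed on captopril (means 10.90 on GN+Captopril, 11.09 on the array labelled GN+Water, 10.97 on Saline+Captopril and 11.39 on Saline+Water). All 8 macrophage markers were higher on water and 7 of 8 on captopril (means 9.63 on GN+Captopril, 10.41 on the array labelled GN+Water, 8.22 on Saline+Captopril and 8.17 on Saline+Water). Of 5 adipose markers, 3 were higher and 1 lower on water, and 3 were higher on captopril (means 7.64 on GN+Captopril, 7.41 on the array labelled GN+Water, 7.09 on Saline+Captopril and 6.88 on Saline+Water), and of 4 adrenal markers 1 was lower on water and 2 were higher on captopril (means 6.30 on GN+Captopril, 5.68 on the array labelled GN+Water, 5.74 on Saline+Captopril and 6.12 on Saline+Water). The part of cell makeup in the member values was not tested.

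By the distance between profiles over the 4 arrays, each minus its own mean, the genes nearest to the brighter Col4a1 probe set were Pdlim7, Il18bp, Zeb1, Sirpa and Plekho1, at root mean square distances of 0.0148, 0.0182, 0.0255, 0.0279 and 0.0366. Of 12550 probe sets compared, 72 lay within 0.1 of Col4a1, whose own range is 0.59. For Col4a3, whose range is 2.13, only Pmepa1 lay within 0.1 (0.0650), followed by Gys1 (0.181), Polr2a (0.183), Scaf11 (0.184) and Atp13a2 (0.204). Each of these 5 was highest on Saline+Water, as Col4a3 was. With 4 arrays such likeness is a description.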

How the data were processed

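The authors deposited 1 log2 value per probe set on each of 4 arrays (the scale follows from the range of values). GCOS and RMA are named by the submitters' processing notes, with no version or role. How background and normalisation were handled, and the build, is not given in the sources used here. Values were used as deposited, with 0 columns left unmapped. Symbols came from the platform annotation, updated through the Entrez ID (20364 of 22690 probe sets) with a mouse table of GRCm38.p6. Differences were computed in Python 3.11.15 with pandas 2.3.3, and alternative normalisations in R 4.3.3 with limma 3.58.1. All member probe sets are named, and up to 4 genes per pathway list that were at least 1.5-fold apart in either GN comparison, ordered by their difference on captopril; Hspg2, Agrn and Serpinh1 were chosen after their values were seen. Fras1, Frem1, Frem2, Pxdn, Loxl2 and Itga1 were not analysed here. Members and lists were chosen with earlier results of these data known. Alternatives were 3 normalisations, other probe set choices, a filter on low levels, a 2-fold threshold and exchange of the arrays in doubt. Precision is limited by having 1 array per group.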

Additional observations from a re-analysis of the deposited data

Results flagged for a closer look

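For the values in this section the GN difference on water and on captopril, or the captopril difference in GN and in saline mice, took opposite directions with at least 0.25 on the log2 scale on either side. Each rests on 4 arrays, 1 per group, and the difference was not tested. Both kinds of difference of differences are the same quantity up to the sign.

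Among the members, Lamb2 had GN differences of -0.30 on water and 0.48 on captopril, which are -0.78 apart, and its level is under the 40th percentile of all probe sets. The brighter Nid1 probe set had captopril differences of -0.59 in GN mice and 0.71 in saline mice, -1.29 apart. Its dimmer probe set had -0.27 and -0.10, the same direction in both, so the opposite directions rest on 1 probe set.

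Of the other laminin chains, Lama3 had GN differences of -1.06 on water and 0.48 on captopril (-1.54 apart) and captopril differences of 1.27 in GN and -0.27 in saline mice (1.54 apart). Lama1 had GN differences of -0.66 on water and 0.30 on captopril (-0.97 apart), and Lama2 had captopril differences of -0.46 in GN and 0.28 in saline mice (-0.73 apart). Npnt had GN differences of 1.92 on water and -0.52 on captopril (2.44 apart) and captopril differences of -1.52 in GN and 0.92 in saline mice (-2.44 apart). Of the 5 Npnt probe sets, 2 shared the direction of the brightest for captopril in saline mice. The captopril differences in GN and in saline mice were -1.09 and 0.33 for Lox (-1.42 apart), 0.55 and -0.91 for P4ha2 (1.46 apart), -0.68 and 0.35 for Mmp14 (-1.03 apart) and -0.50 and 0.71 for Timp2 (-1.21 apart). For captopril in saline mice, 1 of 2 Mmp14, 2 of 3 Lox and 5 of 6 Timp2 probe sets had the direction printed, and the mean over the Mmp14 probe sets was 0.08. Each value given as apart uses both the array labelled GN+Water and the Saline+Water array, and the part of either was not tested. The GN differences on water also use both, and those on captopril use neither. The captopril differences use the array labelled GN+Water in GN mice and the Saline+Water array in saline mice.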

How the results depend on the processing

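The collagen IV contrast ranged over the alternatives from 0.23 to 0.43 for GN on water, from 0.22 to 0.29 for GN on captopril, from -0.19 to -0.10 for captopril in GN mice and from -0.16 to 0.05 for captopril in saline mice. For GN on water, the 2 member probe sets counted as lower became 1 without shared probe sets, 1 at a 2-fold threshold, 1 with the brightest probe set of each gene and 0 with Saline+Captopril as the baseline. For captopril in GN mice, the 1 lower member became 0 after median centring and 0 at 2-fold. For captopril in saline mice, the 2 higher became 1 at 2-fold, and the 4 lower became 2 without shared probe sets, 2 at 2-fold and 2 with the brightest probe sets. With that baseline, an alternative for single members added after seeing the data, the Col4a3 difference on water was 0.20 against -1.73 as reported. Of 94 alternative values of contrasts and counts, 84 stayed within 0.25 (contrasts) or 1.5 times (counts) of the reported value, and of 154 for single members 142 stayed within 0.25. The cause of the other moves was not tested. Some of the 84 values could not have moved, so that tally is only in part a check. Median centring shifts all probe sets of an array alike and cancels in a contrast. The filter on low levels and the removal of shared probe sets left every collagen IV probe set in place. A count of 0 could not rise at a 2-fold threshold or with fewer member probe sets. A contrast smaller than 0.25 can change sign and still count as within that limit. The captopril contrast in saline mice, 0.04 as reported, did so and went down to -0.16. The scaling alternatives shifted the median of all probe sets by at most 0.07. No paired analysis was possible because each group has 1 array and the labels give no replicate numbers.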
